A study of Mus musculus with 8 samples.

Results

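The 38 genes described here encode proteins of the contractile apparatus of striated muscle and of its calcium handling and energy supply. They were named as a list and found on the array by symbol, with 1 probe set each for 37 of them among the 30063 genes that have a probe set of 1 symbol. The exception was Actc1, the cardiac alpha actin gene, for which no value is given. By textbook tissue use, 20 of the 37 were skeletal isoforms, 6 were cardiac isoforms and 11 were shared by skeletal and cardiac muscle. Not every gene on the list is a sarcomere protein: Ckm is a creatine kinase, Pvalb a calcium buffer, and Atp2a1, Casq1, Ryr1 and Hrc belong to the sarcoplasmic reticulum.

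The arrays held RNA of thoracic aortic endothelium from 8 female mice carrying Cdh5-CreERT2, a tamoxifen-inducible recombinase driven by the endothelial Cdh5 promoter, and floxed Mef2c alleles (Mef2c f/f). The 4 EKO mice received tamoxifen for 5 days from 10 weeks of age, and the 4 control mice, littermates of the same genotype, received the vehicle alone, sunflower seed oil with 10% ethanol. Aortas were collected on day 14, counted from the first injection, and TRIzol was passed through the lumen of each aorta to collect RNA, so every array is 1 animal. Recombinase and floxed alleles were present in both groups, and the deletion and the drug cannot be told apart.

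The sarcomere is the repeating unit of striated muscle, in which thick filaments of myosin slide along thin filaments of actin that are anchored at the Z-disc. Calcium released from the sarcoplasmic reticulum binds troponin C on the thin filament, and troponin I and tropomyosin-bound troponin T pass the signal on to actin. Many of these proteins have separate genes for fast skeletal and cardiac fibres, while slow skeletal fibres share several genes with heart, Myh7 and Tnnc1 among them. The isoforms present thus help to tell the kinds of striated muscle RNA apart, less so for slow fibres and heart. Endothelium and vascular smooth muscle do not build sarcomeres. MEF2 proteins, of which Mef2c is one, are known activators of many of these genes in skeletal and cardiac muscle.

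On the whole table, array medians over the 16232 genes tested lay between 8.43 and 8.53 on the log2 scale, and pairwise correlations of arrays across genes ran from 0.981 to 0.993. The endothelial markers Pecam1 and Cdh5 read 18.07 to 18.20 and 16.38 to 16.52 on EKO arrays, against 18.16 to 18.23 and 16.23 to 16.42 on control arrays. Kdr and Robo4, 2 others of 10 endothelial markers, were low in both groups, at 6.53 to 7.22 and 6.11 to 6.54 on EKO arrays and 6.42 to 7.11 and 5.93 to 6.43 on control arrays. Mef2c itself read 9.56, 9.73, 9.66 and 10.03 on EKO arrays 1 to 4, against 9.62, 9.79, 9.88 and 9.80 on control arrays 1 to 4, a difference of -0.03 (SE 0.11, limma adjusted p = 0.946). Its probe set summarises the whole transcript cluster, so this value does not check the loss of a floxed exon.

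Transcripts of skeletal muscle stood above their level on the other arrays on 1 array of each group, EKO array 1 and control array 4, and cardiac isoforms did so on neither. For 21 of the 37 genes these were the 2 highest of the 8 arrays, against 3.36% of all genes. The 21 were 14 of 20 skeletal isoforms, 7 of 11 shared genes and 0 of 6 cardiac isoforms. The pair was singled out from the values of these same genes, so the count is a description and not a test. No gene on the list passed the test between EKO and control aortas. In RNA from whole samples, more muscle material and more transcript per cell cannot be told apart.

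**Figure D1:**
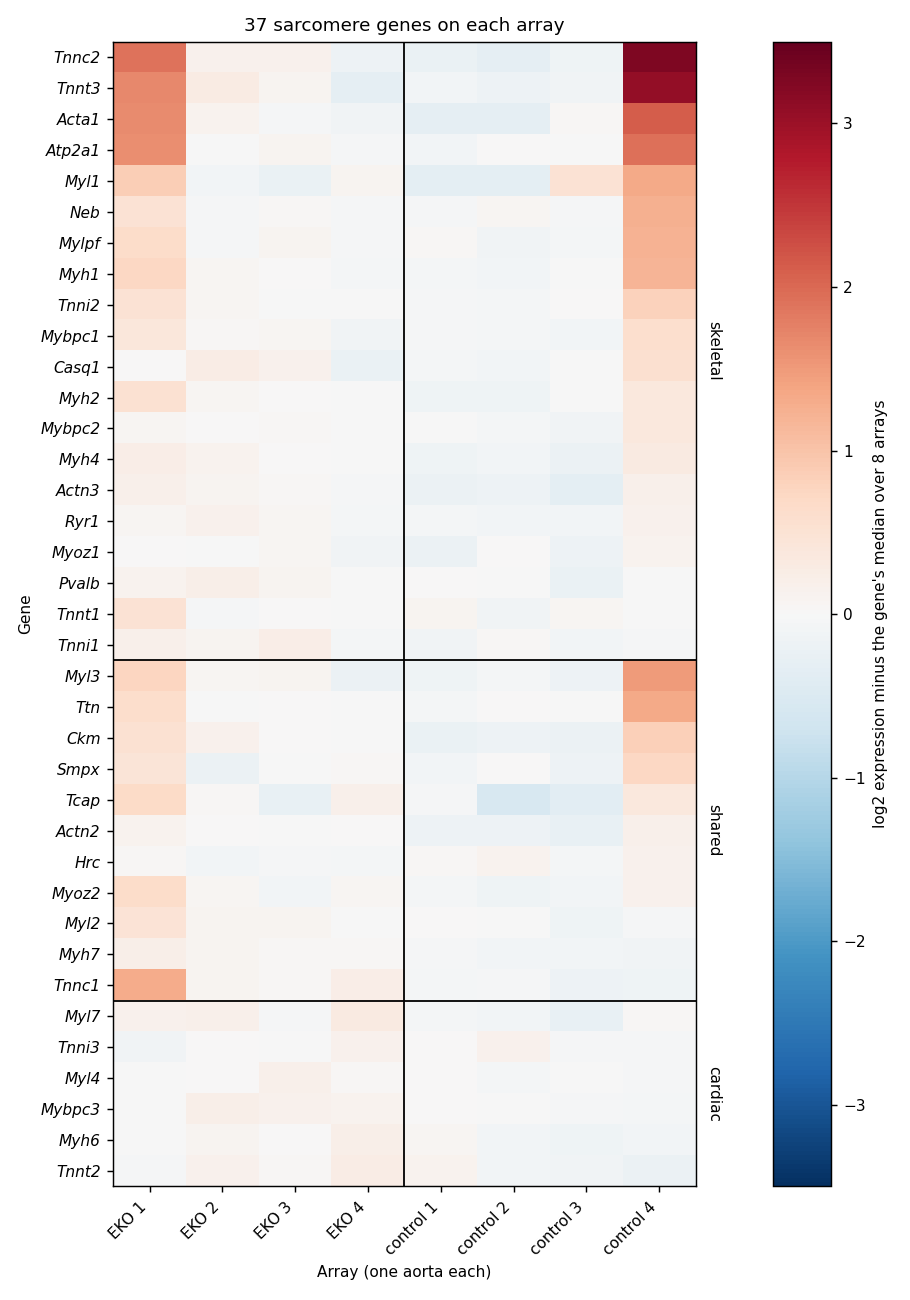
Deviation of each of the 37 genes (rows, by isoform class) from its own median over the 8 arrays, on the log2 scale, for EKO arrays 1 to 4 on the left and control arrays 1 to 4 on the right. Positive deviations in the skeletal and shared rows lie mostly on EKO array 1 and control array 4, and the cardiac rows show no such pair of arrays.

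Most of these signals were low on the array's own scale. Each array carries negative control probe sets, whose median lay between 7.34 and 7.45 and whose 95th percentile lay between 11.5 and 11.8. None of the 37 genes exceeded the 95th percentile on any array, and the share of all genes that did was not counted. That percentile lay above the array medians of the genes tested, 8.43 to 8.53, so this result does not by itself set the list apart. On control array 4, Tnnc2, Tnnt3 and Acta1 exceeded those medians, at 9.90, 9.29 and 8.84. Above the negative control median were 6 genes on EKO array 1, 1 on EKO array 4, 7 on control array 4 and 0 on each of the other arrays. They made up 8 genes in all, Acta1, Tnnt3, Tnnc2, Myl1, Atp2a1, Tnnc1, Myl3 and Tcap, and each is described with its value on every array. All 8 passed on EKO array 1, control array 4 or both, so their high values there follow in part from the choice. Between 37.1% and 38.9% of all genes exceeded the negative control median on an array.

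The promoters of 4 genes are shown as examples: Acta1, Myh1 and Ttn stood high together on the same pair of arrays, and Mybpc3 did not. Each of the 4 holds a marked motif, 3 of them a MEF2 consensus, so they do not stand for the list. The windows are the 250 bases before and the 50 bases after the transcription start, 300 in all, taken from RefSeq on GRCm38.p6 and written 5′ to 3′ on the strand of the gene. Capitals mark the MEF2 consensus in Myh1, Ttn and Mybpc3 and the CArG box, the site of serum response factor, in Acta1.
Acta1 promoter, chr8:123894726-123895025, minus strand: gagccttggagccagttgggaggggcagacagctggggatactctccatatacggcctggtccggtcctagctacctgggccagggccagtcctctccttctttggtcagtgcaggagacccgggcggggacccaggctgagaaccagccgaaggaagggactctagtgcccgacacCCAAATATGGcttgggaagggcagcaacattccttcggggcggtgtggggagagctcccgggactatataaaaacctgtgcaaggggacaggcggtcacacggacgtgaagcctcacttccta
Myh1 promoter, chr11:67199852-67200151, plus strand: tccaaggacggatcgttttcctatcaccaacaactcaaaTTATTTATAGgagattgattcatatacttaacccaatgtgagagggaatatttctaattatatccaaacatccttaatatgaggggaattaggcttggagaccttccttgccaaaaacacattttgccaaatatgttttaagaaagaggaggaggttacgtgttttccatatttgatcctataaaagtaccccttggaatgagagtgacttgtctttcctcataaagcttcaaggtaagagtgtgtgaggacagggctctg
Ttn promoter, chr2:76982498-76982797, minus strand: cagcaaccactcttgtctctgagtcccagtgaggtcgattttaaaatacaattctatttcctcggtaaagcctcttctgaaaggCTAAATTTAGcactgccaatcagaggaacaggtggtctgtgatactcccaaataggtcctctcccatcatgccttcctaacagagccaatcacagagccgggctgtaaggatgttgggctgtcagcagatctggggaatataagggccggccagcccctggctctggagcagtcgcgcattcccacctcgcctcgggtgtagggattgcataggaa
Mybpc3 promoter, chr2:91117894-91118193, plus strand: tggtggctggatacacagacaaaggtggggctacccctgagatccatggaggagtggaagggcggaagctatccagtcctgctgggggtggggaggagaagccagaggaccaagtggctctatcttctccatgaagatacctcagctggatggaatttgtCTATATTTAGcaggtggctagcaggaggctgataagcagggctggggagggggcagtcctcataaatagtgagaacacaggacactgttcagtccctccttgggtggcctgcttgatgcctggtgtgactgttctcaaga
The capitals cover window bases 178 to 187 in Acta1, 40 to 49 in Myh1, 85 to 94 in Ttn and 161 to 170 in Mybpc3. Of the 38 genes, 32 had a window, and both strands were searched. The MEF2 consensus occurred in windows of 6 of the 32, Myh1, Myh4, Pvalb, Mybpc3, Ttn and Myoz2, against 3.70% of all 27025 genes with a window. A CArG box occurred in 5, Acta1, Myh4, Actc1, Myl7 and Myl3, against 1.81% of all genes with a window. An E-box (CANNTG), the site of MyoD-family factors, occurred in 27, against 75% of all genes with a window, and TATAAA occurred in 9, against 15.7%. Counted by window, the shares of all 32851 were 3.19%, 1.63%, 72.3% and 13.6%. The E-box can overlap the other motifs and was counted regardless, and 5 genes had more than 1 window, of which any could hold the motif. A match describes letters in the window and not a bound site. The MEF2 consensus and the CArG box each occurred in genes that stood high on the pair of arrays and in genes that did not. Tnnc2 and Atp2a1, which stood high on that pair, held neither.

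Among the thin filament genes of skeletal muscle, the fast troponin genes Tnnc2 and Tnnt3 had the widest ranges. Acta1, the skeletal alpha actin, read 8.35, 6.82, 6.67 and 6.58 on EKO arrays 1 to 4, against 6.39, 6.38, 6.74 and 8.84 on control arrays 1 to 4. One array in each group was high, the other 6 lay between 6.38 and 6.82, and the groups overlapped. The difference was 0.02 with an SE of 0.61 and limma's adjusted p = 0.995 (95% interval -1.37 to 1.40).

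Tnnc2, the fast skeletal troponin C, read 8.53, 6.79, 6.77 and 6.45 on EKO arrays 1 to 4, against 6.39, 6.33, 6.49 and 9.90 on control arrays 1 to 4. Its range of 3.58 was the widest of the 37 genes, with control array 4 at 3.27 and EKO array 1 at 1.90 above the gene's median. The difference between groups was -0.14 with an SE of 0.84 and limma's adjusted p = 0.961 (95% interval -2.05 to 1.76). Tnnt3, the fast skeletal troponin T, read 7.88, 6.48, 6.30 and 5.89 on EKO arrays, against 6.10, 6.01, 6.09 and 9.29 on control arrays. It had the same pair of high arrays, overlapping groups and a difference of -0.23 with an SE of 0.77 and limma's adjusted p = 0.931 (95% interval -1.99 to 1.52). Tnni2, the fast troponin I, completed the fast complex at lower signal, with 5.47 on EKO array 1, with 4.96 to 5.05 on EKO arrays 2 to 4, against 5.77 on control array 4, with 4.91 to 4.99 on control arrays 1 to 3. Neb, nebulin, the giant protein that spans the thin filament, read 6.64 on EKO array 1, with 6.09 to 6.17 on EKO arrays 2 to 4, against 7.39 on control array 4, with 6.09 to 6.20 on control arrays 1 to 3. All 3 fast troponin subunits and both structural thin filament genes thus had EKO array 1 and control array 4 as their 2 highest arrays.

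In the thick filament, the fast myosin light chains and heavy chains followed the same pair of arrays. Myl1, the fast essential light chain, read 7.51, 6.56, 6.41 and 6.74 on EKO arrays 1 to 4, against 6.32, 6.31, 7.16 and 7.97 on control arrays 1 to 4. Control array 3 was also high for this gene, the only one of the 37 whose value there exceeded the gene's median by at least 0.5. The groups overlapped, and the difference was -0.13 with an SE of 0.39 and limma's adjusted p = 0.924 (95% interval -1.03 to 0.76). Mylpf, the fast regulatory light chain, read 6.35 on EKO array 1, with 5.66 to 5.81 on EKO arrays 2 to 4, against 6.92 on control array 4, with 5.57 to 5.74 on control arrays 1 to 3. Myh1, the myosin heavy chain of fast IIX fibres, read 6.38 on EKO array 1, with 5.59 to 5.72 on EKO arrays 2 to 4, against 6.84 on control array 4, with 5.56 to 5.65 on control arrays 1 to 3. Myh2 and Myh4, the heavy chains of fast IIA and IIB fibres, had narrower ranges of 0.68 and 0.53 over the same 2 highest arrays. Myh2 was higher on EKO array 1, at 6.12, than on control array 4, at 5.96, whereas Myh4 read 5.63 on EKO array 1 and 5.72 on control array 4. Mybpc2, the fast myosin binding protein C, read 5.24 to 5.35 on EKO arrays and 5.15 to 5.63 on control arrays, and the slow form, Mybpc1, read 5.26 to 5.77 on EKO arrays and 5.29 to 5.97 on control arrays.

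**Figure D2:**
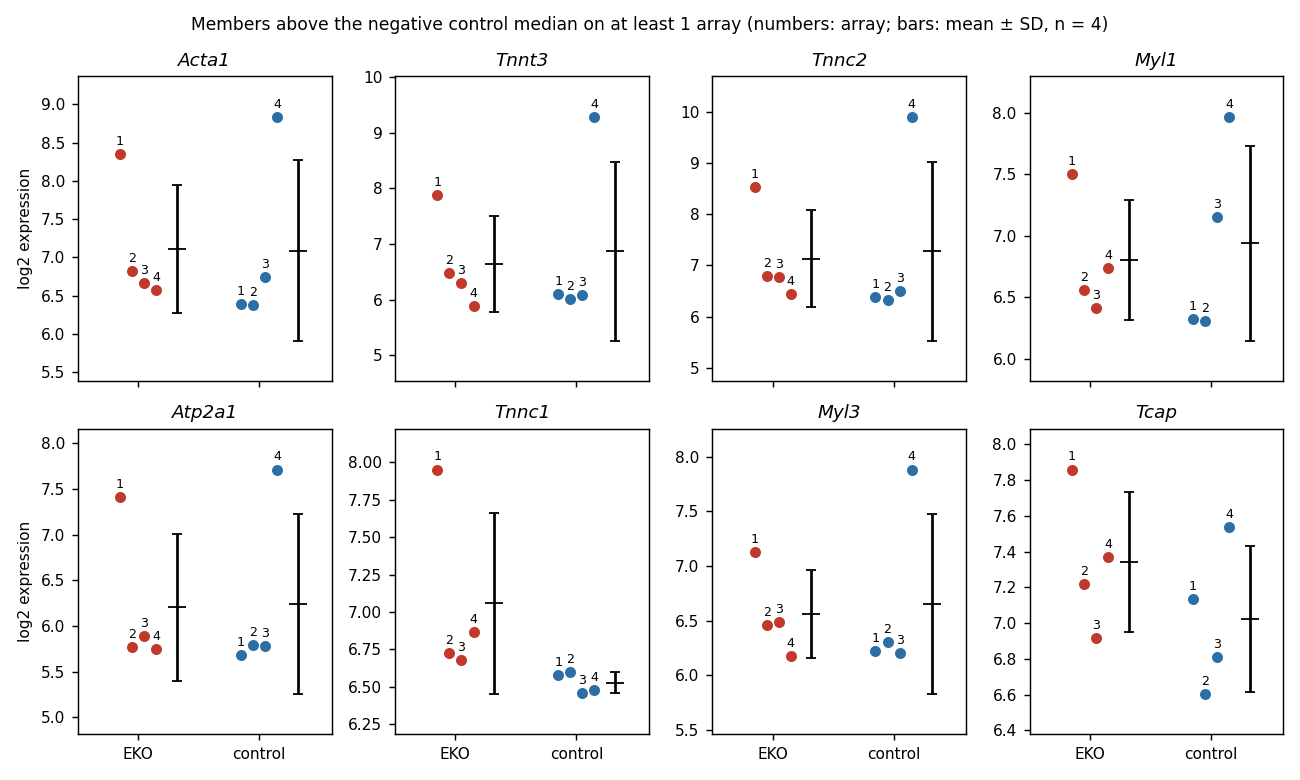
Log2 level on each array of the 8 genes that exceeded the negative control median on at least 1 array, with EKO arrays to the left of control arrays. All 8 passed on EKO array 1, control array 4 or both, so high points there follow in part from the choice. Acta1, Tnnt3, Tnnc2, Atp2a1 and Myl3 have single high points on EKO array 1 and control array 4, Myl1 has another on control array 3, and Tnnc1 has 1 high point, on EKO array 1.

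Of the calcium-handling genes of skeletal muscle, only Atp2a1 exceeded the negative control median on any array. Atp2a1, the calcium pump of the sarcoplasmic reticulum of fast fibres, read 7.41, 5.77, 5.89 and 5.75 on EKO arrays 1 to 4, against 5.68, 5.79, 5.78 and 7.71 on control arrays 1 to 4. The 6 other arrays lay between 5.68 and 5.89, the groups overlapped, and the difference was -0.04 with an SE of 0.53 and limma's adjusted p = 0.985 (95% interval -1.26 to 1.18). Casq1, the skeletal calsequestrin that stores calcium in the reticulum, read 5.28 to 5.76 on EKO arrays, where array 2 was the highest, against 5.40 to 5.48 on control arrays 1 to 3 and 6.05 on control array 4. Ryr1, the skeletal calcium release channel, spanned only 0.24, at 5.24 to 5.44 on EKO arrays and 5.21 to 5.45 on control arrays. Pvalb, parvalbumin, an abundant calcium buffer of fast mouse muscle, was highest on EKO array 2, with 5.53 to 5.73 on EKO arrays and 5.29 to 5.55 on control arrays. Actn3, the Z-disc alpha-actinin of fast fibres, had EKO array 1 and control array 4 as its 2 highest arrays, with 6.24 to 6.47 on EKO arrays and 5.94 to 6.46 on control arrays, a range of 0.54. Myoz1, a calsarcin of the same Z-disc, read 4.93 to 5.13 on EKO arrays and 4.86 to 5.18 on control arrays.

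Slow fibre genes and genes shared by slow fibres and heart were, for the most part, higher on EKO array 1 than on control array 4, with Mybpc1 and Myl3 as exceptions. Tnnc1, the troponin C of slow and cardiac muscle, read 7.95, 6.73, 6.68 and 6.87 on EKO arrays 1 to 4, against 6.58, 6.60, 6.46 and 6.48 on control arrays 1 to 4. Every EKO array lay above every control array, and EKO array 1 stood 1.31 above the gene's median. The difference was 0.53 (SE 0.26, 95% confidence interval -0.06 to 1.12) and did not pass the test (limma adjusted p = 0.586). Without EKO array 1 it was 0.23 and the groups still did not overlap. Tnnc1 was the only one of the 16 genes tested whose groups did not overlap, against 3.41% of all genes tested that did so with EKO higher and 2.67% with EKO lower.

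Tnnt1, the slow troponin T, read 7.02 on EKO array 1, with 6.48 to 6.55 on EKO arrays 2 to 4, against 6.42 to 6.62 on the 4 control arrays. Myl2, the slow and ventricular regulatory light chain, read 5.53 on EKO array 1, with 5.04 to 5.15 on EKO arrays 2 to 4, against 4.92 to 5.08 on control arrays. Both stood high on EKO array 1 and within the range of the other arrays on control array 4. Myoz2, the calsarcin of slow fibres and heart, read 5.03 on EKO array 1, with 4.31 to 4.46 on EKO arrays 2 to 4, against 4.55 on control array 4, with 4.25 to 4.34 on control arrays 1 to 3. Myh7, the slow and cardiac beta myosin heavy chain, read 5.52, 5.42, 5.37 and 5.37 on EKO arrays 1 to 4, against 5.28, 5.23, 5.24 and 5.20 on control arrays 1 to 4. Its groups did not overlap, but its mean was below the level required for the test. Fitted without that requirement, the difference was 0.18 (SE 0.06, limma unadjusted p = 0.0177, adjusted p = 0.546). Every value of Myh7 lay below the negative control median, and how often groups separate at such levels was not counted. Tnni1, the slow troponin I, read 5.27 to 5.57 on EKO arrays, where array 3 was the highest, and 5.22 to 5.37 on control arrays.

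Myl3, the essential light chain of slow and ventricular muscle, was the exception among the 5 genes of slow fibres and heart. It read 7.13, 6.46, 6.48 and 6.18 on EKO arrays 1 to 4, against 6.22, 6.30, 6.21 and 7.88 on control arrays 1 to 4, the order seen for the fast isoforms. The groups overlapped, and the difference was -0.09 with an SE of 0.39 and limma's adjusted p = 0.948 (95% interval -0.97 to 0.79). In all, EKO array 1 exceeded control array 4 in 3 of 13 fast genes, Myh2, Actn3 and Pvalb, in 2 of 3 slow genes and in 4 of 5 genes of slow fibres and heart, against 53.9% of all genes. The fibre classes were drawn up after the values had been seen and are a description of these 2 arrays, each of 1 animal. On average over the class, fast genes stood 0.70 above their medians on EKO array 1 and 1.08 on control array 4. Genes of slow fibres and heart averaged 0.67 on EKO array 1 and 0.26 on control array 4.

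**Figure D3:**
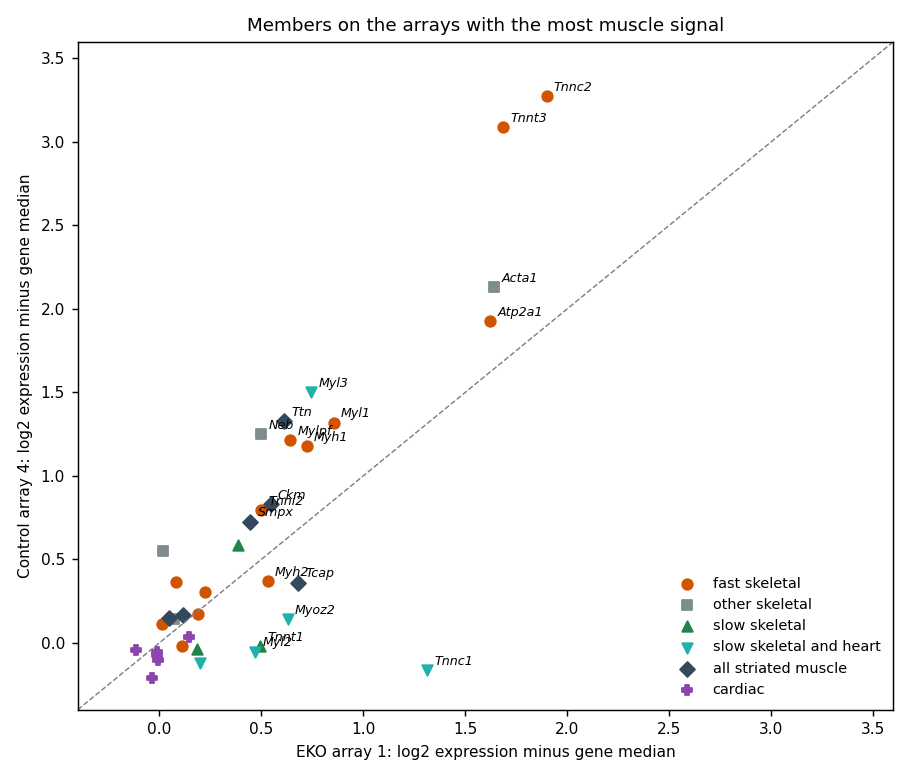
Deviation of each gene from its own median over the 8 arrays, on EKO array 1 against control array 4, on the log2 scale, with isoform classes marked. Fast genes such as Tnnc2 and Tnnt3 lie on the control array 4 side of the line of equality, Tnnc1, Tnnt1, Myl2 and Myoz2 lie on the EKO array 1 side, and cardiac isoforms lie near 0 on both.

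Of the genes used by all striated muscle, Tcap, Ttn, Ckm, Smpx and Actn2 had EKO array 1 and control array 4 as their 2 highest arrays. Tcap, telethonin, which caps titin at the Z-disc, read 7.86, 7.22, 6.92 and 7.37 on EKO arrays 1 to 4, against 7.14, 6.61, 6.81 and 7.54 on control arrays 1 to 4. Its values overlapped between the groups, and the difference was 0.32 with an SE of 0.24 and limma's adjusted p = 0.682 (95% interval -0.24 to 0.87). Ttn, titin, the elastic filament that links the Z-disc to the thick filament, read 5.85 on EKO array 1, with 5.22 to 5.26 on EKO arrays 2 to 4, against 6.57 on control array 4, with 5.18 to 5.24 on control arrays 1 to 3. Ckm, the muscle creatine kinase, read 6.87 on EKO array 1, with 6.30 to 6.47 on EKO arrays 2 to 4, against 7.15 on control array 4, with 6.09 to 6.13 on control arrays 1 to 3. For both genes control array 4 was the highest array and EKO array 1 the next. Smpx, a small muscle protein, spanned 0.92 over the 8 arrays. Actn2, the alpha-actinin of all striated fibres, read 5.89 to 6.03 on EKO arrays and 5.64 to 6.08 on control arrays, and Hrc, a calcium-binding protein of the reticulum, read 6.43 to 6.57 on EKO arrays and 6.46 to 6.67 on control arrays.

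The cardiac isoforms were flat across the 8 arrays, with ranges of 0.24 to 0.56. Tnnt2 and Tnni3, the cardiac troponins T and I, read 6.81 to 7.11 and 6.56 to 6.84 on EKO arrays, against 6.64 to 6.98 and 6.63 to 6.82 on control arrays. Myh6, the cardiac alpha myosin heavy chain, read 5.67 to 5.87 on EKO arrays and 5.54 to 5.74 on control arrays. None of these 3 was highest on EKO array 1 or control array 4. Myl4 and Myl7, the atrial light chains, read 6.30 to 6.48 and 5.59 to 5.93 on EKO arrays, against 6.24 to 6.32 and 5.37 to 5.66 on control arrays. Mybpc3, the cardiac myosin binding protein C, read 5.40 to 5.61 on EKO arrays and 5.35 to 5.43 on control arrays. Within the EKO group, array 1 ranked highest for 0 of the 6 cardiac isoforms, 15 of 20 skeletal isoforms and all 11 shared genes, and within the control group, array 4 ranked highest for 1, 17 and 8 of them. No cardiac isoform exceeded the negative control median on any array. The difference with the smallest unadjusted p in the class was that of Myl7, 0.24 (SE 0.09, limma unadjusted p = 0.029, adjusted p = 0.546), fitted without the requirement on level.

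Averaged over each class as deviations from the genes' own medians, skeletal isoforms stood at 0.62, 0.07, 0.05 and -0.07 on EKO arrays 1 to 4, against -0.11, -0.11, -0.06 and 0.94 on control arrays 1 to 4. Shared genes stood at 0.53, 0.03, -0.01 and 0.03 on EKO arrays 1 to 4, against -0.08, -0.11, -0.16 and 0.44 on control arrays 1 to 4. Cardiac isoforms stood at -0.01, 0.11, 0.05 and 0.18 on EKO arrays 1 to 4, against 0.03, -0.04, -0.10 and -0.07 on control arrays 1 to 4. The first 2 classes each had 1 high array in either group, and the third had none. Genes of a class share the array and are not replicates of each other.

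**Figure D4:**
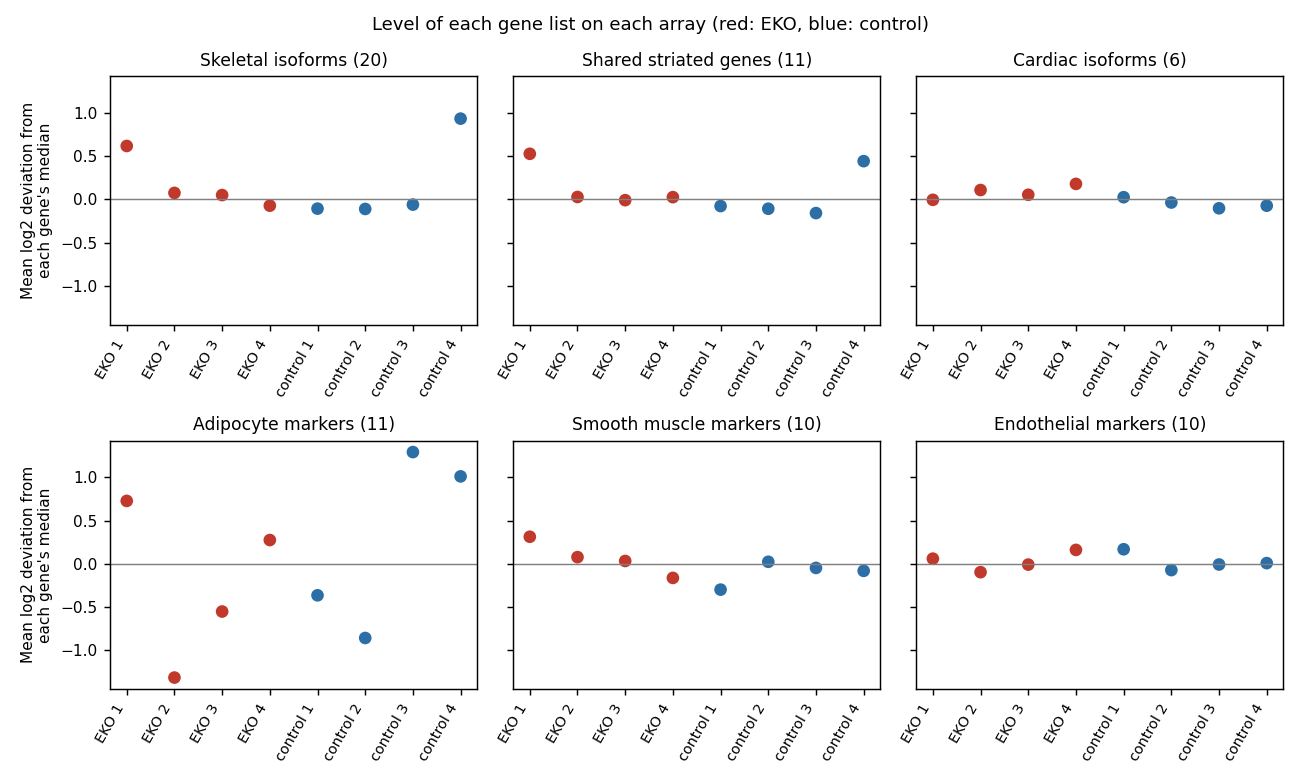
Mean deviation from each gene's own median, on the log2 scale, for skeletal, shared and cardiac genes and for adipocyte, smooth muscle and endothelial markers, on EKO arrays 1 to 4 (left) and control arrays 1 to 4 (right). Skeletal isoforms peak at 0.62 on EKO array 1 and 0.94 on control array 4, and cardiac isoforms stay between -0.10 and 0.18.

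The median within-group standard deviation was 0.24 over the 37 genes and 0.14 over all genes, with 0.27 for skeletal, 0.35 for shared and 0.10 for cardiac genes. A range of at least 1 over the 8 arrays was found in 13 of the 37, which were 8 skeletal and 5 shared genes and no cardiac isoform, against 9.00% of all genes. Control array 4 was the highest array for 21 of the 37 genes, against 9.71% of all genes, and EKO array 1 for 8, against 8.01%. EKO array 4 was the highest for 4 genes, against 12.1% of all genes. EKO array 2 and EKO array 3 were each the highest for 2, against 24.6% and 14.9%. Control arrays 1, 2 and 3 were the highest for 0, against 7.76%, 13.1% and 9.81%. By Dixon's ratio, which compares the gap to the nearest array with the range of the group, EKO array 1 stood apart as the highest of its group for 9 of the 37, against 0.486% of all genes. Control array 4 did so for 14, against 0.615%.

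The comparison of EKO with control aortas asks whether transcripts of these genes differ after induced endothelial deletion of Mef2c. Of the 37 genes, 16 passed the requirement that a gene's mean over the arrays exceed 6.14: 8 skeletal isoforms, 3 cardiac isoforms and 5 shared genes. For Tnnt3, Neb and Atp2a1 this held only with EKO array 1 and control array 4 included, and 13 of the 16 met it over the other 6 arrays. With limma, 0 of the 16 were called at an adjusted p of at most 0.05, against 0.00% of all genes tested, and 0 of the 16 had an unadjusted p under 0.05, against 8.93% of all genes tested, made up of 5.42% higher and 3.51% lower in EKO. The smallest adjusted p was 0.586 among the 16, that of Tnnc1, and 0.478 among all genes tested. By sign, 8 of the 16 were higher in EKO and 8 lower, against 44.9% of all genes tested that were higher.

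The median difference was 0.01 over the 16 genes, -0.09 over the 8 skeletal isoforms and 0.08 over the 3 cardiac isoforms, against -0.02 over all genes tested. The interval of Tnnc2, with single arrays standing apart, spanned -2.05 to 1.76, and that of the flat Tnnt2 spanned -0.05 to 0.40 around a difference of 0.18. Leaving out control array 4 set the difference of Tnnc2 to 0.73, that of Tnnt3 to 0.57 and the median of the list to 0.32. Leaving out EKO array 1 set them to -0.61, -0.65 and -0.02. In each case Atp2a1 no longer met the level, and the median is over 15 genes. With Atp2a1 kept, its difference was 0.45 without control array 4 and -0.44 without EKO array 1, and the median over the 16 was 0.32 and -0.08. Without both arrays, Tnnc2 differed by 0.27, Acta1 by 0.18, Myl1 by -0.02, Myl3 by 0.13 and Tcap by 0.32. The smallest limma adjusted p of the list was 0.482, and the median was 0.18 over the 13 genes that met the level. With the level not applied again, the median over the 16 was 0.14. Leaving out both arrays was chosen after seeing the data.

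**Figure D5:**
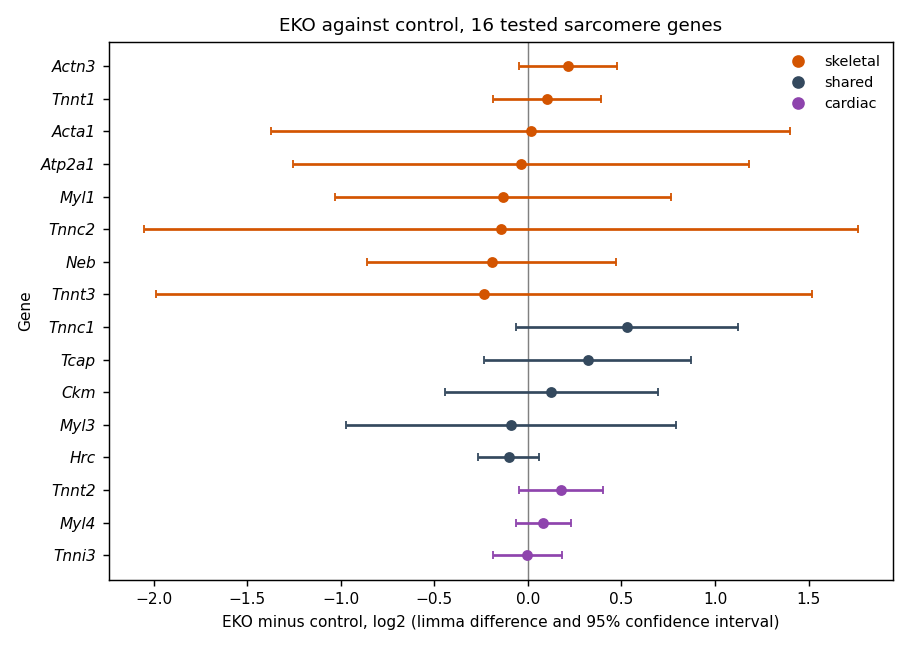
Difference between EKO and control arrays (log2, EKO minus control) with its 95% confidence interval for the 16 genes tested, by isoform class. Every interval includes 0, and those of Tnnc2, Tnnt3 and Acta1 are the widest.

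Other muscle genes outside the list followed the same pair of arrays in part. Of 19 genes of muscle energy and calcium handling, 7 had EKO array 1 and control array 4 as their 2 highest arrays. The median range of the 19 was 0.34, against 0.45 over all genes. The first 4 genes given here with values are those with the widest range and do not stand for the 19. Sln, sarcolipin, an inhibitor of the muscle calcium pump, read 7.58, 6.93, 6.77 and 6.55 on EKO arrays 1 to 4, against 6.63, 6.73, 6.50 and 8.15 on control arrays 1 to 4. Pygm, muscle glycogen phosphorylase, read 6.84 on EKO array 1, with 6.26 to 6.38 on EKO arrays 2 to 4, against 7.46 on control array 4, with 6.07 to 6.36 on control arrays 1 to 3. Both repeated the order of the fast isoforms. Eno3, muscle enolase, read 7.84 on EKO array 1, with 7.02 to 7.44 on EKO arrays 2 to 4, against 8.33 on control array 4, with 6.96 to 7.28 on control arrays 1 to 3. Pgam2, muscle phosphoglycerate mutase, read 5.59 on EKO array 1, with 4.94 to 5.22 on EKO arrays 2 to 4, against 5.84 on control array 4, with 4.94 to 5.31 on control arrays 1 to 3. Of the 6 tested, 0 were called in either direction, and 1 had an unadjusted p under 0.05, Cox6a2, a subunit of muscle cytochrome oxidase, at 0.28 (SE 0.11, limma adjusted p = 0.539).

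Of 24 further sarcomere and Z-disc genes, 5 had the same 2 highest arrays, and 13 were highest on control array 4. The median range of the 24 was 0.31, against 0.45 over all genes, and the genes given with values have the widest. Klhl41, a muscle kelch protein, read 6.04 on EKO array 1, with 5.21 to 5.31 on EKO arrays 2 to 4, against 6.40 on control array 4, with 5.14 to 5.27 on control arrays 1 to 3. Myot, myotilin of the Z-disc, read 5.95 on EKO array 1, with 5.24 to 5.41 on EKO arrays 2 to 4, against 6.33 on control array 4, with 5.44 to 5.49 on control arrays 1 to 3. For 2 others, control array 4 lay well above the rest and EKO array 1 did not. Csrp3, a Z-disc LIM protein, read 6.05 to 6.39 on EKO arrays and 5.82 to 6.08 on control arrays 1 to 3, with 7.34 on control array 4. Myh8, the perinatal myosin heavy chain, is one of the 5 counted, with EKO array 1 second by a small margin: it read 5.34 to 5.40 on EKO arrays and 5.23 to 5.28 on control arrays 1 to 3, with 6.38 on control array 4. None of the 3 tested genes of this list was called.

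Genes of muscle cell identity showed no such pair of arrays, with 1 exception. Of 11 myogenic and endplate genes, it was Des, desmin, an intermediate filament protein that smooth muscle also makes. Des read 6.71 on EKO array 1, with 5.92 to 6.08 on EKO arrays 2 to 4, against 6.74 on control array 4, with 5.61 to 6.18 on control arrays 1 to 3. The myogenic factors Myog, Myf6 and Myod1 read 5.51 to 5.81, 4.26 to 4.51 and 4.69 to 4.89 on EKO arrays, against 5.27 to 5.51, 4.07 to 4.55 and 4.70 to 5.01 on control arrays. None of the 11 exceeded the negative control median, and only 1 was tested, without a call. Of 10 cardiomyocyte genes, 0 had this pair of arrays as the highest and 0 passed the requirement on level. The cardiac transcription factors Nkx2-5, Tbx5 and Hand2 read 5.44 to 5.72, 5.48 to 5.60 and 5.29 to 5.54 on EKO arrays, against 5.31 to 5.50, 5.44 to 5.95 and 5.09 to 5.33 on control arrays. Nppa, the atrial natriuretic peptide, read 5.13 to 5.27 on EKO arrays and 4.81 to 4.97 on control arrays.

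Markers of other cell types around the aorta also differed between arrays. The 11 brown and white adipocyte markers stood at 0.73, -1.32, -0.55 and 0.27 on EKO arrays 1 to 4, against -0.37, -0.86, 1.29 and 1.01 on control arrays 1 to 4, and their summed level ran from 12.58 to 16.29 on EKO arrays and from 13.56 to 17.31 on control arrays on the log2 scale. Ucp1, the uncoupling protein of brown fat, read 15.78, 11.14, 13.45 and 15.20 on EKO arrays 1 to 4, against 14.38, 11.96, 16.73 and 16.24 on control arrays 1 to 4. EKO array 1 and control array 4 were thus high for adipocyte markers too, but control array 3 was the highest, where skeletal isoforms stood at -0.06. They were the 2 highest arrays for 2 of the 11 adipocyte and 2 of the 7 fibroblast markers. Within the EKO group, array 1 ranked highest for 9 of the 11 adipocyte and 5 of the 7 fibroblast markers. Within the control group, array 4 ranked highest for 5 of the 11 and 5 of the 7. These counts were 6 and 2 for the 10 smooth muscle markers and 3 and 1 for the 10 endothelial markers. The share of all genes was not counted. The 7 fibroblast markers stood at 0.19 on EKO array 1, 0.53 on control array 3 and 0.60 on control array 4, and between -0.38 and -0.02 on the others, with a summed level of 12.00 to 13.05 on EKO arrays and 12.50 to 13.78 on control arrays. The 10 smooth muscle markers stood at 0.31, 0.08, 0.03 and -0.16 on EKO arrays 1 to 4, against -0.30, 0.02, -0.05 and -0.08 on control arrays 1 to 4, with a summed level of 11.74 to 13.19 on EKO arrays and 11.53 to 12.44 on control arrays. Acta2, smooth muscle actin, read 12.39 on EKO array 1, with 10.14 to 11.53 on EKO arrays 2 to 4, against 10.49 on control array 4, with 9.68 to 11.53 on control arrays 1 to 3. The part of these markers in the levels of the striated genes was not tested. The mean of the 10 endothelial markers stood between -0.10 and 0.17 on every array, but 3 of the 10, Emcn, Vwf and Cldn5, had a range of at least 1.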

How the data were processed

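The deposited values are on the log2 scale, 1 per probe set and array. Per the labels, the authors obtained them by SST-RMA, run in Expression Console, from 5 ng of total RNA per aorta on Affymetrix Mouse Transcriptome arrays. The version and the genome build of the array values are not given in the sources used here. SST-RMA includes quantile normalization, which removes most of any difference in total signal from array to array. Precision is limited by the number of arrays.

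Of 72688 probe sets, 30604 had 1 gene symbol in the platform annotation, 2146 had several and 33206 others were not listed. Symbols were updated through RefSeq (GRCm38.p6), which matched 30602 and changed 1135. The probe set with the highest mean stood for each gene. Genes with a mean above 6.14 (the median over every probe set) were tested with limma 3.58.1 in R 4.3.3 over all 8 arrays without covariates, with Benjamini-Hochberg adjustment over 16232 genes. The script was tested on simulated data. Differences are EKO minus control. Array groups came from the sample titles.

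The members and lists were chosen with earlier results of these data known, and the fibre classes and the pair of arrays after the values were seen. All 37 genes were to be described, with full values for those above background on at least 1 array. Background was to be the 95th percentile of the negative control probe sets, which no member exceeded, so the alternative that had been listed, their median, was used and gave 8 genes. From each list of other muscle genes the 4 with the widest range were named, with Cox6a2 and Robo4 added after their values were seen. Promoters came from RefSeq (GRCm38.p6), for 32 of 38 genes. The alternatives were other filters, scalings, array weights, a replicate block and leaving out arrays.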

Additional observations from a re-analysis of the deposited data

Results flagged for a closer look

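In groups of 4 arrays, 24 of the 74 sets of values over the 37 genes had 1 array far from the other 3 by Dixon's ratio at its 95% critical value. EKO array 1 was the high one in 9 of the 24 and control array 4 in 14. Over all genes, these arrays stood apart in this way for 0.486% and 0.615%. The 74 sets come from the same arrays and are not independent, so the count is a description and not a test.

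Among EKO arrays, array 1 stood apart for 9 genes. It read 8.35 for Acta1, 6.38 for Myh1, 6.12 for Myh2 and 7.02 for Tnnt1. It read 8.53 for Tnnc2, 6.64 for Neb, 7.41 for Atp2a1, 7.95 for Tnnc1 and 5.85 for Ttn. Of these 9, 7 were skeletal isoforms and 2 were shared genes.

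Among control arrays, array 4 stood apart for 14 genes. It read 8.84 for Acta1, 6.84 for Myh1, 9.29 for Tnnt3, 5.77 for Tnni2 and 9.90 for Tnnc2. It read 6.92 for Mylpf, 7.39 for Neb, 7.71 for Atp2a1, 6.05 for Casq1 and 5.45 for Ryr1. It read 5.97 for Mybpc1, 7.15 for Ckm, 7.88 for Myl3 and 6.57 for Ttn. Pvalb, the calcium buffer of fast fibres, had a low array instead, control array 3 at 5.29.

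The class means behaved alike. The shared genes stood apart on EKO array 1 at 0.53 and on control array 4 at 0.44 above their medians, and the skeletal isoforms on control array 4 at 0.94. The mean of the skeletal isoforms on EKO array 1, at 0.62, did not pass Dixon's ratio.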

How the results depend on the processing

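No alternative called a gene of the list or any other gene at an adjusted p of at most 0.05, and none did at 0.1. The count of all tested genes with an unadjusted p under 0.05 was 1449 with limma and 1469 with the unmoderated test. The differences of Tnnc1 and Tcap kept their sign, at 0.23 to 0.65 and 0.15 to 0.49 with each array left out. Those of the other 6 named genes depended on single arrays: leaving out 1 array at a time gave -0.40 to 0.60 for Acta1, -0.65 to 0.57 for Tnnt3, -0.61 to 0.73 for Tnnc2, -0.22 to 0.11 for Atp2a1, -0.37 to 0.21 for Myl1 and -0.28 to 0.32 for Myl3. The range of Atp2a1 leaves out EKO array 1 and control array 4, without which it fell below the level tested. With the level not applied again, a setting added after seeing the data, it ran from -0.44 to 0.45. The ranges of the medians were -0.058 to 0.32 for all genes of the list that were tested, -0.37 to 0.32 for skeletal and 0.04 to 0.10 for cardiac isoforms. Scaling also moved them: the cardiac median was 0.03 with quantile normalization and 0.02 with centring on the array median. The skeletal median was -0.13 and -0.15. Without both EKO array 1 and control array 4, chosen after seeing the data, the signs of Tnnc2 (0.27) and Myl3 (0.13) turned. Tnnt3 and Atp2a1 fell below the level tested there. With the level not applied again, their signs turned too, to 0.16 and 0.05. The difference of Acta1 turned to -0.014 with quantile normalization, -0.048 with centring on the array median and -0.18 with array weights. The causes were not tested. With the negative control median as background, 6 genes were above it on EKO array 1, 1 on EKO array 4 and 7 on control array 4, against 0 with the 95th percentile. Over the 5 skeletal isoforms above that median, also added later, the class stood at 1.54 on EKO array 1 and 2.35 on control array 4. These 5 were chosen through those arrays and so had to be high there. Quantile normalization moved the cardiac mean to 0.013 on EKO array 2 and -0.0089 on control array 4. When the required level was raised to the 75th percentile, no gene of the list was left, so its medians have no value there, and no gene exceeded the planned background for an average over such genes. The replicate number as a block called 0 genes and left the medians at 0.01, -0.09 and 0.08, with a smallest adjusted p of 0.642 in the list. The deviations of same-numbered arrays did not show a pairing, at correlations of -0.16, 0.21, -0.24 and 0.13 for numbers 1 to 4. These values cannot exclude one. Of the other pairs, EKO array 1 and control array 4 had a correlation of 0.40 over all genes tested. That of EKO array 3 and control array 2 was 0.46, and that of EKO array 1 and control array 2 was -0.40. Signals near the negative controls limit all of these values.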

Other observations

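None of the 8 squamous epithelium and 5 Schwann cell and nerve markers had EKO array 1 and control array 4 as its 2 highest arrays. The squamous epithelium markers, keratins among them, averaged 0.01, 0.19, 0.12 and -0.03 from their own medians on EKO arrays 1 to 4, against -0.00, -0.00, -0.08 and -0.10 on control arrays 1 to 4. The Schwann cell and nerve markers averaged between -0.04 and 0.04 on EKO arrays and between -0.07 and -0.02 on control arrays. Of the MEF2 family, Mef2a read 12.77 to 13.02 on EKO arrays and 12.60 to 13.16 on control arrays, and Mef2d read 9.76 to 9.95 on EKO arrays and 9.87 to 10.10 on control arrays.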
